A study of Caenorhabditis elegans with 16 samples.

Results

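Chromatin accessibility was examined at 10 genes whose products give a C. elegans neuron its transmitter: unc-17, cha-1, unc-25, unc-47, eat-4, tph-1, cat-1, cat-2, tdc-1 and tbh-1. A peak was assigned to one of these genes when it overlapped the gene body or the 1 kb upstream of it in the Ensembl annotation of WBcel235. By this rule, 19 of the 29131 ATAC-seq peaks were found, at 9 of the 10 genes, and tph-1 had none. The rule used positions and no read counts, but the peaks themselves were called in these data.

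ATAC-seq, in which the Tn5 transposase inserts sequencing adapters into open DNA, was performed on whole L1 larvae of 4 genotypes with 4 replicates each, 16 libraries in all. Larvae labelled rpoa-2::degron carry a degron-GFP tag on RPOA-2, a large core subunit of the polymerase that transcribes ribosomal DNA, and larvae labelled rrb-1::degron carry it on GRWD-1 (named RRB-1 in the labels), a chaperone for assembly of the large ribosomal subunit. The same 2 tags were also combined with eft-3p::tir-1, which expresses the auxin receptor TIR1 throughout the animal, so that the tagged protein is depleted in auxin. The growth temperature was 23 °C and 1 mM auxin was given to every genotype. Larvae without TIR1 (undepleted) were collected after 18 h and those with TIR1 (RPOA-2 depleted or GRWD-1 depleted) after 24 h because they grow more slowly. Depletion therefore comes together with the TIR1 transgene, a different strain and a later collection in each comparison, and these cannot be told apart. Each batch of larvae was divided into the 4 replicates of its genotype, so replicates share their growth. Nuclei were then prepared in 4 batches that each held 1 replicate of every strain, and the labels do not say which replicate was in which batch. The p-values cover only the spread between these libraries.

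A neuron's transmitter is set by the few genes it expresses for making that transmitter and loading it into synaptic vesicles. In C. elegans these genes are switched on in different sets of neurons by terminal selector transcription factors, and each transmitter is made in only a part of the nervous system. In reads from whole larvae, fewer cells with an open site and a less open site in each cell cannot be told apart, and the same site in the many non-neuronal nuclei contributes to every value.

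The deposited values are counts of reads in merged peaks, between 2337415 and 13010378 per library. The 19 peaks held between 0.0490% and 0.0628% of a library's reads, and between 11 and 1795 reads per peak and library. Levels are given as CPM, the reads of a peak scaled by library total and TMM factor, and, for comparison between peaks, as CPM per kb of peak. One edgeR quasi-likelihood fit held the 16 libraries, with a term for each genotype and for 2 unwanted factors estimated from control peaks. P-values were Benjamini-Hochberg adjusted over all 29131 peaks, and a peak was called at an adjusted p under 0.05. Neuronal, body wall muscle, pharyngeal, intestinal, epidermal and germline marker genes were all represented by peaks, with none at ric-4 (neuronal), ges-1 (intestinal) and nos-2 (germline).

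Most peaks at these genes lay over protein-coding sequence, and 3 of the 10 genes had a peak at the annotated start. Coding exons made up over 50% of the length of 13 of the 19 peaks (68.4%), against 46.7% of the 24382 peaks that the same rule assigns to any protein-coding gene. The window from 1 kb before to 250 bp after the annotated 5′ end held a peak at 3 of the 10 genes (unc-25, unc-47 and eat-4; 30%), against 43.5% of 19985 protein-coding genes. Both are descriptions of 10 genes, with no test. With 10 genes, of which unc-17 and cha-1 share a first exon, a count of 3 is near the share of all protein-coding genes. Each merged peak name ends in the number of single peaks joined. That number is 1 for both unc-47 peaks, the eat-4 and tdc-1 peaks, and tbh-1 peaks 1 and 4. Each of these was therefore called as a peak in only 1 of the 16 libraries.

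**Figure D1:**
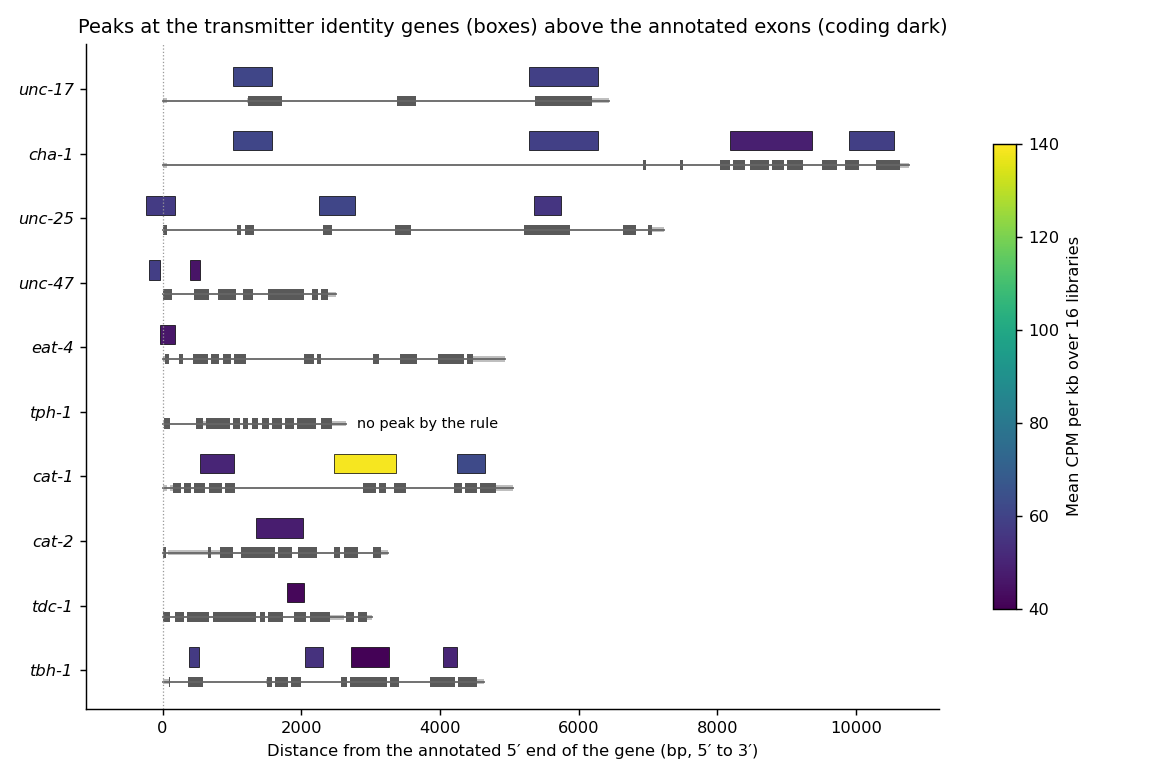
Peaks (boxes, coloured by mean CPM per kb over the 16 libraries) above the annotated exons of the 10 genes (coding sequence dark), against the distance from the annotated 5′ end in bp. unc-25, unc-47 and eat-4 have a peak at or just before the start, the other 6 genes with peaks have them only further in, tph-1 has none, and cat-1 peak 2 stands out at 138 CPM per kb.

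In level, the peaks were ordinary for this data set. The median was 55.3 CPM per kb for the 19 peaks and 52.4 CPM per kb for all peaks, and 11 of the 19 lay above the median of all. The median length was 419 bp, against 381 bp for all peaks. In the order of levels, cat-1 peak 2 came first at 138 CPM per kb and cat-1 peak 3 next at 62.5 CPM per kb. From there down to tbh-1 peak 3 at 40.7 CPM per kb, no step between neighbours was above 3.80 CPM per kb, less than the median SD between replicates of 7.46 CPM per kb, so the order of neighbours is not resolved.

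**Figure D2:**
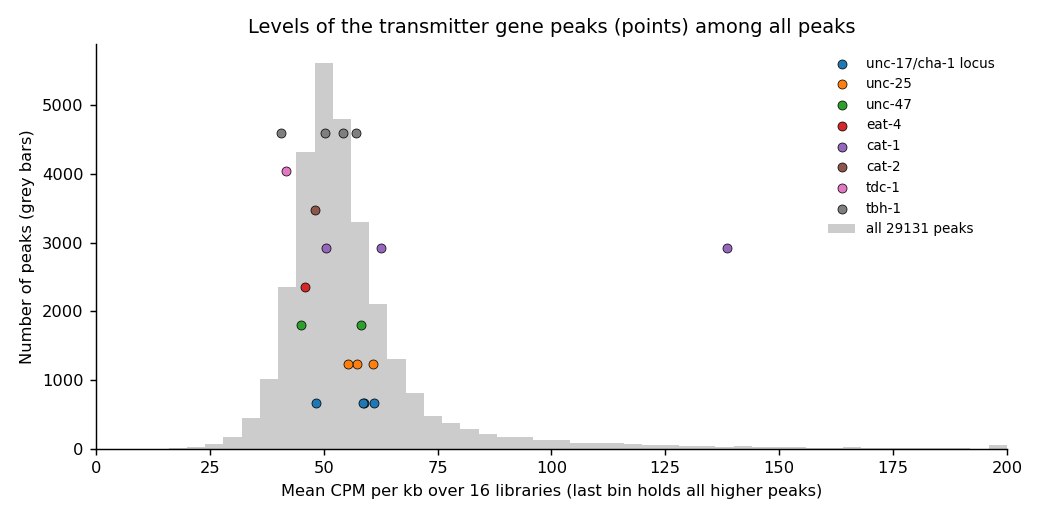
Mean level of each of the 19 peaks (points, 1 colour and height for each gene or locus) over the distribution of all 29131 peaks (grey bars, number of peaks), both in CPM per kb. All points but cat-1 peak 2 lie between 40.7 and 62.5 CPM per kb, inside the main body of the distribution.

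Neither depletion produced a call at these genes. Of the 19 peaks, 0 were called upon RPOA-2 depletion, where 1.69% of all peaks were called, and 0 upon GRWD-1 depletion, where 1.38% were called (edgeR). At an unadjusted p under 0.05, 1 of the 19 peaks passed upon RPOA-2 depletion (12.3% of all peaks) and 0 upon GRWD-1 depletion (10.8% of all peaks). A DESeq2 Wald test with the same factors gave an adjusted p for 12 of the 19 peaks and called 0 of these in each depletion, with 0 of all 19 at an unadjusted p under 0.05. No peak had its 4 depleted libraries all above or all below the 4 undepleted ones, a pattern that 2.13% (above) and 2.49% (below) of all peaks showed upon RPOA-2 depletion and 1.76% and 2.12% upon GRWD-1 depletion. With 19 peaks, counts of 0 are near what these shares give.

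Log2 fold changes ranged from -0.33 (tbh-1 peak 4) to 0.37 (unc-47 peak 1) upon RPOA-2 depletion, with 8 positive, 11 negative and a median of -0.018 beside 0.0035 over all peaks. Upon GRWD-1 depletion they ranged from -0.16 (cat-1 peak 1) to 0.18 (unc-17/cha-1 locus peak 1), with 11 positive, 8 negative and a median of 0.026 beside 0.0059 over all peaks. Standard errors were between 0.0797 and 0.238 for RPOA-2 and between 0.0753 and 0.211 for GRWD-1. The 95% intervals of the fold therefore reached down to 0.607 and up to 1.71 for RPOA-2, and down to 0.707 and up to 1.36 for GRWD-1. Doublings and halvings lay outside the interval of every peak, but smaller changes did not, and a missed threshold does not show that accessibility stayed the same.

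**Figure D3:**
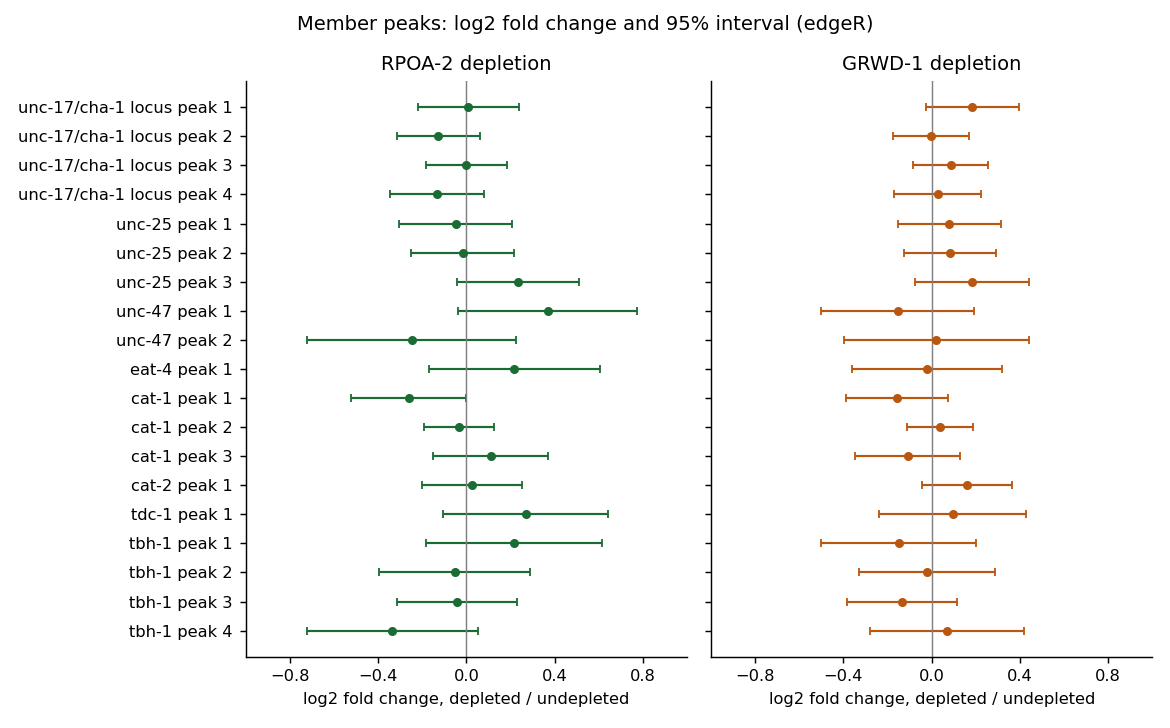
Log2 fold change, depleted over undepleted, of each of the 19 peaks with its 95% interval from the edgeR fit, for RPOA-2 depletion (left, green) and GRWD-1 depletion (right, orange). Values lie between -0.33 and 0.37 on the left and between -0.16 and 0.18 on the right, and the interval of cat-1 peak 1 on the left is the only one of the 38 that ends short of 0.

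The cholinergic locus holds 2 genes in 1 unit. unc-17 (WBGene00006756, chromosome IV, 3618259 to 3624699, minus strand) encodes the vesicular acetylcholine transporter. cha-1 (WBGene00000481, chromosome IV, 3613931 to 3624697, minus strand) encodes choline acetyltransferase, which makes acetylcholine, and the 2 genes share a first exon, with the rest of unc-17 inside the long first intron of cha-1. The locus had 4 peaks, of which peaks 1 and 2 belong to both genes, so their reads cannot be divided between the 2.

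Peak 1 of the locus (3623121 to 3623682), over the first coding exon and adjoining intron of unc-17 and within the cha-1 intron, was the lead peak of both genes, that is, the one with the highest level in the absence of a peak at the gene start. It held 36.1, 35.1, 39.1 and 30.4 CPM in the 4 RPOA-2 undepleted libraries and 31.2, 35.005, 33.0 and 40.9 CPM in the RPOA-2 depleted ones. In GRWD-1 larvae it held 33.3, 25.2, 36.8 and 30.2 CPM undepleted and 34.4, 36.5, 34.1 and 37.0 CPM depleted. The RPOA-2 groups span nearly the same range, and for GRWD-1 the depleted libraries lie close together at the upper end of the wider undepleted range. On the log2 scale it differed by 0.01 (adjusted p = 0.987, standard error 0.114) between the RPOA-2 groups. Between the GRWD-1 groups it differed by 0.18 (adjusted p = 0.550, standard error 0.106), the largest value and the lowest adjusted p of the 19 peaks in that comparison (edgeR).

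The other 3 peaks of the locus lay over later exons: peak 2 (3618416 to 3619410) over the end of unc-17 and its 3′ untranslated region, and peaks 3 (3615333 to 3616517) and 4 (3614147 to 3614800) over cha-1 coding exons. Group means lay between 56.3 and 61.9 CPM for peak 2, between 54.5 and 59.1 CPM for peak 3 and between 36.8 and 40.9 CPM for peak 4. None passed the test in either depletion, with log2 fold changes from -0.13 to 0.09. Peak 3 is the longest of the 19 peaks, at 1185 bp.

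Both GABA genes had a peak at their start, that of unc-47 called in only 1 library. unc-25 (WBGene00006762, chromosome III, 12942651 to 12949883, plus strand) encodes glutamic acid decarboxylase, which makes GABA, and unc-47 (WBGene00006783, chromosome III, 10183762 to 10186260, minus strand) encodes the vesicular GABA transporter. unc-25 peak 1 (12942419 to 12942837) spanned the upstream region, the 5′ untranslated region and the first coding exon, with its midpoint 23 bp before the annotated start. It held 25.5, 24.6, 29.5 and 19.02 CPM in RPOA-2 undepleted and 26.3, 23.1, 18.8 and 27.1 CPM in RPOA-2 depleted libraries. For GRWD-1 the values were 25.4, 22.4, 22.2 and 22.1 CPM undepleted and 23.7, 24.8, 25.1 and 23.7 CPM depleted. All 4 groups overlap, and the GRWD-1 libraries differ among themselves far less than the RPOA-2 ones, with SDs of 1.59 and 0.741 CPM against 4.33 and 3.78 CPM. Log2 fold changes were -0.05 (standard error 0.129) upon RPOA-2 and 0.08 (standard error 0.117) upon GRWD-1 depletion, and neither passed the test.

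unc-25 peak 2 (12944908 to 12945433) and peak 3 (12948007 to 12948390) lay further in, peak 2 over an exon and introns and peak 3 wholly over coding sequence. Peak 2 had group means between 31.4 and 33.3 CPM. Peak 3 had 20.4 ± 3.03 CPM (SD, n = 4) in RPOA-2 undepleted and 24.4 ± 4.94 CPM (SD, n = 4) in RPOA-2 depleted larvae, and 19.3 ± 3.28 and 20.9 ± 2.41 CPM (SD, n = 4 each) in the GRWD-1 pair. Its log2 fold changes of 0.23 and 0.18 have the same sign in both depletions, and their 95% intervals, -0.04 to 0.51 and -0.07 to 0.44, include 0.

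unc-47 peak 1 (10186301 to 10186460) lay wholly upstream of the gene, with its midpoint about 120.5 bp before the annotated start, and was 1 of 2 peaks among the 19 with no coding base. In RPOA-2 larvae it held 6.30, 9.22, 7.18 and 8.37 CPM undepleted and 7.22, 11.2, 8.35 and 13.6 CPM depleted. In GRWD-1 larvae it held 10.5, 11.2, 10.9 and 8.12 CPM undepleted and 10.8, 10.1, 7.72 and 8.26 CPM depleted. The 2 highest RPOA-2 depleted libraries lie above all RPOA-2 undepleted ones and the other 2 within their range, while the GRWD-1 groups overlap throughout. On the log2 scale the RPOA-2 depleted mean differed by 0.37 (adjusted p = 0.473, standard error 0.204, edgeR), the largest of the 19, and the GRWD-1 depleted mean by -0.15 (adjusted p = 0.815, standard error 0.174). With a library left out, the RPOA-2 value ranged from 0.16 (without RPOA-2 depleted replicate 4) to 0.53 (without RPOA-2 depleted replicate 1), and it was 0.20 without RPOA-2 undepleted replicate 1.

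The difference between these 2 effects at unc-47 peak 1, 0.52 with a 95% interval of -0.01 to 1.06, was the largest among the 19 peaks and did not pass the test (unadjusted p = 0.0549, adjusted p = 0.856, edgeR). The RPOA-2 undepleted mean of 7.77 ± 1.29 CPM (SD, n = 4) was also the lowest of the 4 group means, beside 10.2 ± 1.40 CPM (SD, n = 4) in GRWD-1 undepleted larvae. unc-47 peak 2 (10185720 to 10185869), over an exon and intron, had the fewest reads of the 19, down to 11 in a library, and group means between 6.201 and 7.11 CPM.

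eat-4 (WBGene00001135, chromosome III, 9136887 to 9141827, plus strand) encodes the vesicular glutamate transporter that defines glutamatergic neurons. Its only peak (9136853 to 9137064), called in only 1 library, covered the start of the gene, with the 5′ untranslated region and first coding exon. It held 9.83, 7.86, 7.45 and 12.2 CPM in RPOA-2 undepleted and 10.1, 8.10, 9.19 and 13.1 CPM in RPOA-2 depleted libraries. In GRWD-1 larvae it held 10.2, 9.84, 8.01 and 11.04 CPM undepleted and 10.9, 6.96, 10.1 and 10.8 CPM depleted. The 4 groups cover nearly the same range. Log2 fold changes of 0.22 (95% interval -0.17 to 0.61) and -0.02 (95% interval -0.36 to 0.32) did not pass the test. At 45.9 CPM per kb it was the lowest of the 3 peaks at gene starts, and 20.2% of all peaks had a level no higher.

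**Figure D4:**
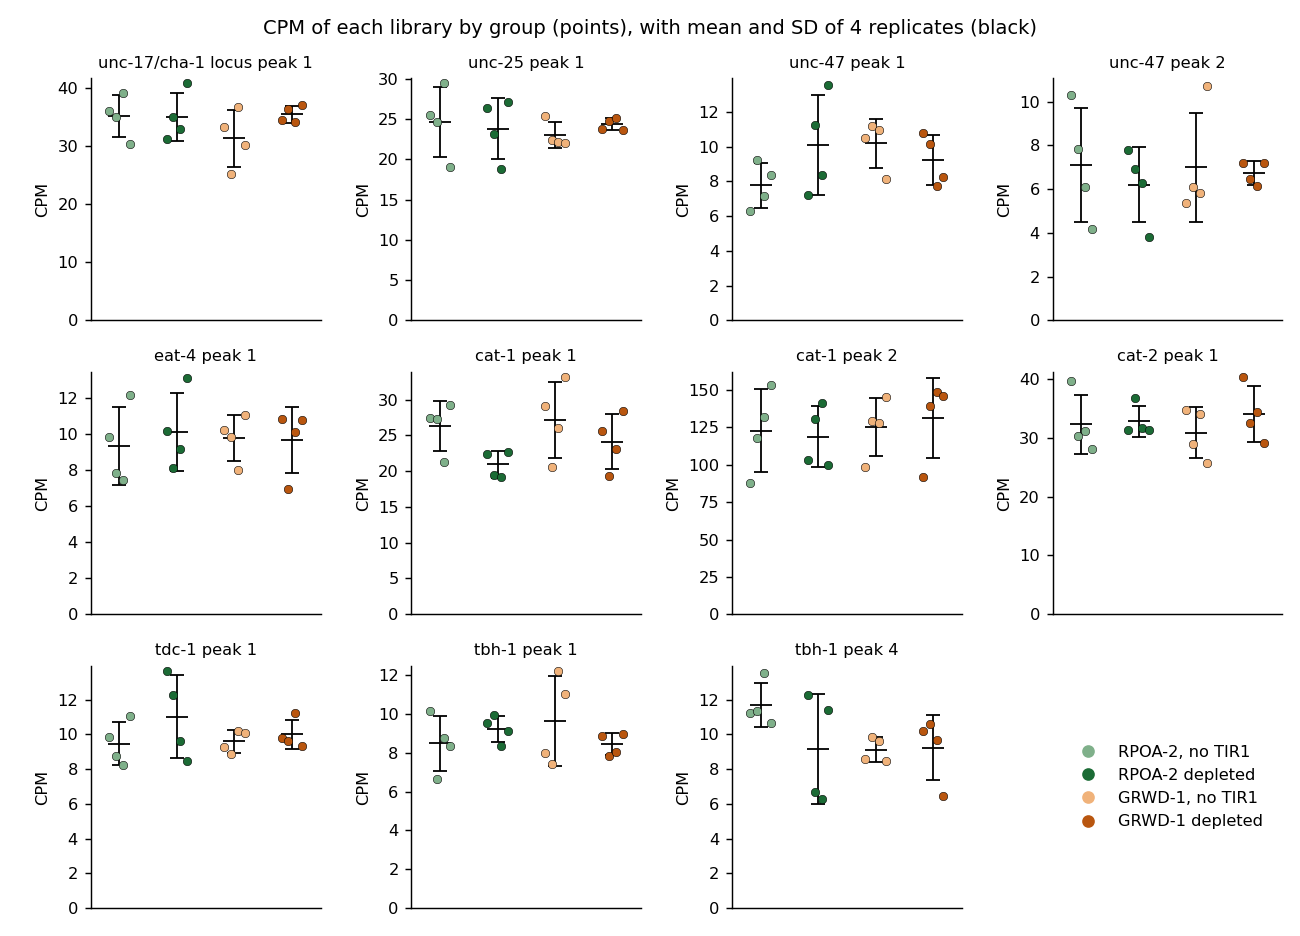
CPM of each library (points) by genotype group for the lead peak of each gene, the peaks with the lowest log2 fold change in a depletion (tbh-1 peak 4, cat-1 peak 1) and unc-47 peak 2, with the mean and SD of 4 replicates in black and every axis from 0. In each panel the depleted and undepleted points of a tag overlap.

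Among the monoamine genes, cat-1 (WBGene00000295, chromosome X, 5705690 to 5710737, minus strand), the vesicular monoamine transporter used by all monoaminergic neurons, had the most accessible peak. cat-1 peak 2 (5707365 to 5708264) lies over coding exons and introns in the middle of the gene and also contains a tRNA gene, WBGene00022974 (5708028 to 5708109), on the opposite strand. Its level of 138 CPM per kb was at or above that of 98.98% of all peaks. It held 87.7, 118, 132 and 154 CPM in RPOA-2 undepleted and 103, 130.4, 142 and 99.9 CPM in RPOA-2 depleted libraries. GRWD-1 larvae had 98.8, 129, 128 and 146 CPM undepleted and 91.6, 139, 149 and 146 CPM depleted. Replicate 1 was the lowest library in 3 of the 4 groups, and the groups overlap. With the most reads of the 19, this peak had the narrowest intervals, a fold of 0.876 to 1.09 upon RPOA-2 and of 0.925 to 1.14 upon GRWD-1 depletion, and neither comparison passed the test.

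cat-1 peak 1 (5709710 to 5710198), over coding exons near the start of the gene, had the lowest adjusted p of the 19 peaks upon RPOA-2 depletion. It held 27.5, 27.3, 21.3 and 29.3 CPM undepleted and 22.4, 19.5, 19.2 and 22.7 CPM depleted. The 3 other undepleted libraries lie above all depleted ones, and replicate 3 at 21.3 CPM falls among them. The log2 fold change was -0.26 with a standard error of 0.131, an unadjusted p of 0.0499 and an adjusted p of 0.407 (edgeR), so it was not called. In GRWD-1 larvae the values were 29.1, 20.6, 26.04 and 33.1 CPM undepleted and 25.6, 19.4, 23.2 and 28.4 CPM depleted, which overlap broadly. Their log2 fold change, -0.16 (adjusted p = 0.675, edgeR, standard error 0.117), was the lowest of the 19 in that comparison. cat-1 peak 3 (5706090 to 5706489), over coding exons towards the 3′ end, had group means between 23.5 and 26.3 CPM.

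cat-2 (WBGene00000296, chromosome II, 257819 to 261074, plus strand) encodes tyrosine hydroxylase, the enzyme that commits tyrosine to dopamine. Its only peak (259165 to 259839) lay over inner coding exons, inside the gene scc-2 on the opposite strand, which shares these reads. It held 39.6, 30.4, 31.1 and 28.1 CPM in RPOA-2 undepleted and 31.4, 36.8, 31.7 and 31.3 CPM in RPOA-2 depleted libraries. In GRWD-1 larvae the values were 34.8, 28.96, 34.05 and 25.7 CPM undepleted and 40.4, 32.5, 34.4 and 29.1 CPM depleted. In each pair the groups overlap, and the log2 fold changes were 0.02 (standard error 0.115) and 0.16 (standard error 0.103), neither past the threshold.

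tdc-1 (WBGene00006562, chromosome II, 8270597 to 8273615, plus strand) encodes tyrosine decarboxylase, which makes tyramine, and tbh-1 (WBGene00006541, chromosome X, 15500256 to 15504895, minus strand) encodes tyramine beta-hydroxylase, which turns tyramine into octopamine. The only tdc-1 peak (8272395 to 8272634) lay well inside the gene, over coding exons. It held 9.83, 8.76, 8.25 and 11.03 CPM in RPOA-2 undepleted and 13.7, 12.3, 9.61 and 8.47 CPM in RPOA-2 depleted libraries. GRWD-1 larvae had 9.25, 8.84, 10.2 and 10.1 CPM undepleted and 9.81, 9.62, 11.2 and 9.34 CPM depleted. The 2 highest of the 16 libraries are RPOA-2 depleted, but the other 2 of that group lie within the undepleted range. Log2 fold changes were 0.27 (95% interval -0.11 to 0.64) and 0.09 (95% interval -0.24 to 0.43), neither past the threshold.

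tbh-1 had 4 peaks along its length and none at the annotated 5′ end. The lead peak, tbh-1 peak 1 (15504363 to 15504519), lay wholly over coding sequence with its midpoint 81 bp from the start of a shorter annotated transcript, and overlapped H13N06.7 on the opposite strand. It held 10.1, 6.65, 8.78 and 8.37 CPM in RPOA-2 undepleted and 9.56, 9.93, 8.35 and 9.11 CPM in RPOA-2 depleted libraries. In GRWD-1 larvae it held 8.01, 7.41, 12.2 and 11.04 CPM undepleted and 8.85, 7.85, 8.05 and 8.98 CPM depleted. In both pairs the depleted libraries lie inside the range of the undepleted ones. Log2 fold changes were 0.22 (standard error 0.200) and -0.15 (standard error 0.176), neither past the threshold.

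At the far end of the gene, tbh-1 peak 4 (15500655 to 15500849) had the lowest log2 fold change of the 19 peaks upon RPOA-2 depletion, -0.33 (adjusted p = 0.507, edgeR, standard error 0.195). RPOA-2 undepleted libraries held 11.2, 11.3, 13.6 and 10.7 CPM and depleted ones 12.3, 6.66, 6.26 and 11.4 CPM. Depleted replicates 2 and 3 are below all undepleted libraries, while replicates 1 and 4 lie within the undepleted range. In GRWD-1 larvae the values were 8.56, 9.84, 9.65 and 8.45 CPM undepleted and 10.2, 10.6, 9.71 and 6.47 CPM depleted, which overlap, and the log2 fold change was 0.07 with a standard error of 0.176. tbh-1 peaks 2 (15502585 to 15502843) and 3 (15501625 to 15502180) had group means between 13.4 and 14.9 CPM and between 21.4 and 23.8 CPM. Both also reach into the 1 kb upstream of H13N06.7, so their reads are shared with that gene, also in the sums per gene. tbh-1 peak 3 had the lowest level of the 19 per kb.

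tph-1 (WBGene00006600, chromosome II, 7549335 to 7551983, plus strand) encodes tryptophan hydroxylase, the enzyme that commits tryptophan to serotonin. No merged peak lay within 1 kb upstream of it or over it. The nearest peaks ended 3605 bp before its start and began 6038 bp beyond its end, so there is no value for this gene.

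Reads were also summed per gene over all of its peaks and fitted for 20675 genes, which gives 1 value for each of the 9 genes with a peak. Of these, 0 were called upon RPOA-2 depletion, where 4.31% of all genes were called, and 0 upon GRWD-1 depletion, where 3.81% were called (edgeR), and DESeq2 also called 0 in each. At an unadjusted p under 0.05, 0 of 9 passed in either, beside 16.7% and 15.9% of all genes. The sums were tighter than the single peaks for genes with several of them. cha-1 had 197.0 ± 19.9 CPM (SD, n = 4) in RPOA-2 undepleted and 186 ± 9.58 CPM (SD, n = 4) in RPOA-2 depleted larvae, and the 95% interval of the fold was 0.874 to 1.03. For cha-1 in GRWD-1 larvae the interval was 0.963 to 1.13. The summed cat-1 peaks gave folds of 0.882 to 1.05 and 0.914 to 1.08, the unc-25 peaks 0.919 to 1.15 and 0.966 to 1.18, and the tbh-1 peaks 0.846 to 1.09 and 0.844 to 1.06 for RPOA-2 and GRWD-1 depletion. Over the 9 genes, log2 fold changes ranged from -0.09 (unc-17) to 0.26 (tdc-1) upon RPOA-2 depletion and from -0.10 (unc-47) to 0.15 (cat-2) upon GRWD-1 depletion.

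The 2 depletions were then compared with each other. Between RPOA-2 depleted and GRWD-1 depleted larvae, 0 of the 19 peaks were called (0.13% of all peaks, edgeR), 0 passed an unadjusted p under 0.05 (7.07% of all peaks), and the log2 differences ranged from -0.24 (cat-1 peak 1) to 0.17 (cat-1 peak 3). Between the undepleted strains, 0 were called (0.00343% of all peaks) and 0 passed unadjusted (4.06% of all peaks), with a range from -0.38 (unc-47 peak 1) to 0.30 (tbh-1 peak 4). For the difference between both depletion effects, 0 were called (0.0103% of all peaks) and 0 passed unadjusted (5.79% of all peaks), with a range from -0.40 (tbh-1 peak 4) to 0.52 (unc-47 peak 1). DESeq2 called 0 in all 3, among 1, 19 and 19 peaks with an adjusted p, and 0 of 19 passed an unadjusted p under 0.05 in each. With so few calls over all peaks, counts of 0 say little about these 19.

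Other genes of the transmitter pathways gave the same counts. A list of 21 partners for synthesis, uptake, sorting and breakdown had peaks at 15 genes, 9 of the 21 with a peak at their start (42.9%). By summed reads, 0 of the 15 genes were called in either depletion, with median log2 fold changes of -0.0020 and 0.026 for RPOA-2 and GRWD-1, and 0 of their 40 peaks were called. Transmitter receptors had peaks at 30 of 38 genes and at the start of 23 of the 38 (60.5%). Here too 0 of 30 genes and 0 of 83 peaks were called in either depletion, with median log2 fold changes of 0.020 and 0.038. Medians over all genes were 0.0029 and 0.0053. Of all genes 4.31% and 3.81% were called, and of all peaks 1.69% and 1.38%. With lists of this size, counts of 0 are near what these shares give. Within the partners, 3 genes passed an unadjusted p under 0.05 upon RPOA-2 depletion and 1 upon GRWD-1 depletion, and within the receptors 1 and 4 did, beside 16.7% and 15.9% of all genes, so these counts show nothing particular to the lists.

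Terminal selectors, the transcription factors that switch transmitter genes on, had peaks at 15 of 18 genes and at the start of 9 of the 18 (50%). By summed reads, 0 of the 15 were called in either depletion and 0 of their 41 peaks, and median log2 fold changes were -0.026 and 0.049. The shares called were 4.31% and 3.81% of all genes and 1.69% and 1.38% of all peaks, so counts of 0 are near these shares. An unadjusted p under 0.05 was reached by 0 of them upon RPOA-2 and by 2 upon GRWD-1 depletion, beside 16.7% and 15.9% of all genes.

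Some genes were called in a list of pan-neuronal genes, most of them for vesicle release and transport. Of 16 genes, 15 had peaks, 11 of the 16 at their start (68.8%). By summed reads, 3 rose (unc-18, rgef-1 and unc-64) and 0 fell upon RPOA-2 depletion, and 3 rose (unc-18, egl-3 and ida-1) and 1 fell (unc-104) upon GRWD-1 depletion, beside 498 genes that rose and 394 that fell of all 20675 in the first and 278 and 510 in the second. Median log2 fold changes of the list were 0.15 and 0.079. Of the 48 peaks of the list, 5 rose and 1 fell upon RPOA-2 depletion (1.69% of all peaks called), and 1 rose and 1 fell upon GRWD-1 depletion (1.38% of all peaks called). With 1 library left out, the RPOA-2 peak calls other than that of unc-18 held in 4 of 16 fits for unc-11, 9 of 16 for rgef-1, 9 of 16 for unc-104, 10 of 16 for egl-3 and 11 of 16 for unc-64. Each of these 5 calls was lost without RPOA-2 undepleted replicate 1, 3 or 4 and without RPOA-2 depleted replicate 2. Calls over all peaks fell as well, from 491 to 168 without RPOA-2 undepleted replicate 1 and to 142 without replicate 3. Whether this list differs from the transmitter genes was not tested.

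unc-18, which encodes the Munc18 protein that binds syntaxin at the synapse, had the largest of these changes and was called in every fit that left out 1 library, 16 of 16 in each depletion. Its peak on chromosome X from 7681898 to 7685826 covers the upstream region, the start and most of the gene. It had 173 ± 10.8 CPM in RPOA-2 undepleted and 361 ± 20.5 CPM in RPOA-2 depleted larvae (SD, n = 4 each), and rose by 1.04 on the log2 scale (adjusted p = 5.4e-21, edgeR, standard error 0.0706). GRWD-1 larvae had 181 ± 11.3 CPM undepleted and 357 ± 25.8 CPM depleted (SD, n = 4 each), a rise of 0.97 on the log2 scale (adjusted p = 3.2e-20, edgeR, standard error 0.0687). All 4 depleted libraries lay above all 4 undepleted ones in both. Both rises compare a strain with TIR1 to one without, so depletion, strain and collection time cannot be told apart here. Copies of the locus in each strain were not examined. For the other pan-neuronal genes, the call from summed reads depended on which library was left out. Upon RPOA-2 depletion, rgef-1 was called in 9 of 16 such fits and unc-64 in 6 of 16, and both calls were lost without any 1 of the 4 RPOA-2 undepleted libraries, without RPOA-2 depleted replicate 2 or 3, and without GRWD-1 undepleted replicate 1. The unc-64 call was also lost without RPOA-2 depleted replicate 4 and without GRWD-1 depleted replicate 3 or 4. Upon GRWD-1 depletion, the call of egl-3, a proprotein convertase that processes neuropeptides, held in 9 of 16 fits and was lost without RPOA-2 undepleted replicate 1 or 3, RPOA-2 depleted replicate 2, GRWD-1 undepleted replicate 2 or 3, or GRWD-1 depleted replicate 3 or 4. The call of ida-1, a dense core vesicle protein, held in 3 of 16 fits, those without RPOA-2 undepleted replicate 3, RPOA-2 depleted replicate 1 or GRWD-1 depleted replicate 4. The call of unc-104 held in 2 of 16, those without RPOA-2 undepleted replicate 2 or 4.

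**Figure D5:**
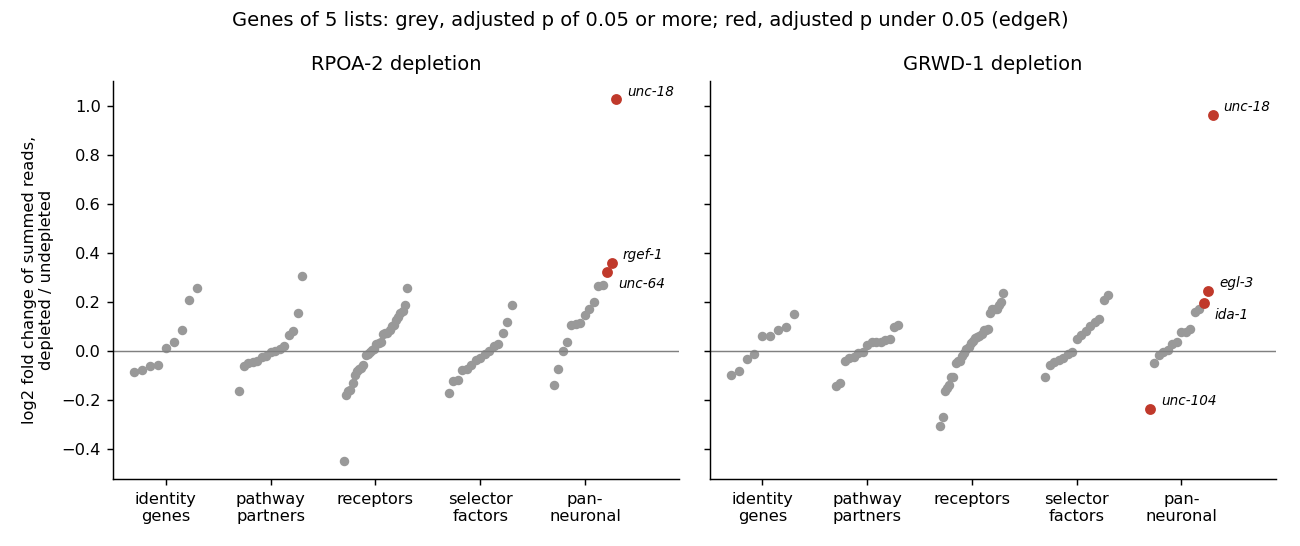
Log2 fold change of reads summed per gene, depleted over undepleted, for the 9 transmitter identity genes and 4 lists of related neuronal genes (points, sorted within each list), with genes called at an adjusted p under 0.05 in red. Red points appear only among the pan-neuronal genes, and unc-18 stands near 1 in both panels.

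Markers of the tissues that make up a whole larva were also examined, as a description that does not measure the mixture of cells. Peaks lay at 6 of 6 body wall muscle, 4 of 4 pharyngeal and 6 of 6 epidermal markers. They also lay at 5 of 6 intestinal and 2 of 3 germline markers. Of these peaks 0 were called in either depletion, beside 1.69% and 1.38% of all peaks for RPOA-2 and GRWD-1. By summed reads 0 of these markers were called, beside 4.31% and 3.81% of all genes for RPOA-2 and GRWD-1. An unadjusted p under 0.05 was reached by 1 muscle marker upon RPOA-2 depletion, beside 16.7% of all genes. Upon GRWD-1 depletion it was reached by 1 epidermal, 1 intestinal and 1 pharyngeal marker, beside 15.9% of all genes. These counts show nothing particular to the markers. The summed level of the intestinal markers was between 182 and 199 CPM in RPOA-2 undepleted and between 163 and 181 CPM in RPOA-2 depleted libraries, so these groups did not overlap, and between 168 and 196 CPM and between 151 and 171 CPM in the GRWD-1 pair, which overlap. The intestinal median log2 fold changes were -0.12 (0 of 5 genes positive) for RPOA-2 and -0.20 (2 of 5 positive) for GRWD-1. The epidermal markers did not overlap in the GRWD-1 pair, with 651 to 694 CPM undepleted and 614 to 648 CPM depleted and a median log2 fold change of -0.096 over 6 genes, 0 of them positive. In the RPOA-2 pair they overlapped, with 628 to 697 CPM and 626 to 690 CPM. The sums of the body wall muscle, pharyngeal and germline markers overlapped in both pairs. The neuronal markers summed to between 482 and 587 CPM undepleted and between 532 and 706 CPM depleted for RPOA-2, and to between 551 and 679 CPM and between 553 and 747 CPM for GRWD-1. Of the 12 neuronal marker peaks, 2 rose and 1 fell upon RPOA-2 depletion, and 0 rose and 1 fell upon GRWD-1 depletion. By summed reads 1 neuronal marker rose (rgef-1) upon RPOA-2 depletion, and 1 rose (egl-3) and 1 fell (unc-104) upon GRWD-1 depletion. The neuronal markers are also in the pan-neuronal list, so these are the same calls. How often the sums of other gene sets do not overlap between groups was not examined. The part of these differences in the values of the transmitter genes was not tested.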

How the data were processed

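ATAC-seq read counts per merged peak were used from 16 libraries. The authors' counts are as deposited, with no normalization. According to the study's methods they came from fastp-trimmed reads mapped with bowtie 2 (WBcel235), filtered for duplicates, mitochondrial and low-quality alignments, with MACS2 peaks from each library joined by Homer before featureCounts 2.0.1 counting.

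R 4.3.3 and edgeR 4.0.16 were used for the fits (TMM, filterByExpr, which removed 0 peaks). The 2 unwanted factors followed the RUVg method, from 13897 control peaks whose adjusted p was 0.75 or more between the RPOA-2 groups in DESeq2 1.42.0. Standard errors are the log2 fold change over the root of the F statistic. The fit was also run on simulated data with 200 changed peaks and the same relative spread for every peak. That setting is simpler than these data, so it does not show how well the fit does on them. Replicate pairs differed by more than counting error (chi-square per degree of freedom 1.87 to 11.8).

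Per-library values are given for the lead peak of each gene (highest CPM per kb at the gene start, or else of all its peaks), for called peaks, for the largest and smallest log2 fold change in each depletion, and for peaks with groups apart in both depletions. Peaks named outside this rule were chosen after their values were seen. The members, gene lists and tests were chosen with earlier results of these data known. Alternatives covered the test, factors, control peaks, replicate block, normalization, filter, threshold, peak assignment and each library left out. No motif was searched and no sequence is shown, because genome sequence was not used here.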

Additional observations from a re-analysis of the deposited data

Results flagged for a closer look

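In 3 of the 76 sets of 4 replicates (19 peaks in 4 groups), 1 library stood far from the other 3 by Dixon's criterion, which chance alone meets in about 1 of 20 sets. At unc-25 peak 1, GRWD-1 undepleted replicate 1 held 25.4 CPM against 22.1 to 22.4 CPM in the others. At unc-47 peak 2, GRWD-1 undepleted replicate 4 held 10.7 CPM against 5.39 to 6.08 CPM. At cat-2 peak 1, RPOA-2 depleted replicate 2 held 36.8 CPM against 31.3 to 31.7 CPM. The 3 libraries are different ones.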

How the results depend on the processing

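All 7 counts of called transmitter peaks and genes were 0 under every alternative run, 230 recomputed counts in all: DESeq2, 0, 1 or 3 factors, other control peaks, other normalizations, filters and thresholds, fits of the compared groups alone, peaks assigned by the gene body, by 2 kb upstream or by at least 50% overlap, and each of the 16 libraries left out. The libraries were processed in 4 batches with 1 replicate of each strain, but the labels do not say that a number marks a batch, so the main fit has no replicate block. The data give a partial hint of pairing: of 24 same-numbered pairs, 13 had correlated deviations over 0.1 (range -0.019 to 0.46), and 8 of 16 libraries correlated best with their own number in every other group. Within same-numbered libraries, cat-1 peak 1 was lower in the depleted one in 8 of 8 comparisons, 4 for each depletion, as were 1.72% of all peaks, and no other transmitter peak was lower or higher in all 8. With a replicate block beside the factors, 0 of 19 members were called, and calls over all peaks went from 491 to 307 for RPOA-2 and from 402 to 353 for GRWD-1. With a replicate block in place of the factors they were 519 and 198. The number of calls over all peaks did depend on the factors: without factors it was 34 and 40, with 1 factor 132 and 160, with 3 factors 594 and 0.357% of all peaks (1.38% with 2 factors), with control peaks from the GRWD-1 comparison 129 and 282, with all peaks as controls 63 and 189, and in fits of the compared groups alone 542 and 8, while DESeq2 gave 554 and 393. At an adjusted p under 0.1 it was 779 and 627. With 1 library left out it was lowest without RPOA-2 depleted replicate 2, at 34 and 88. In some other such fits it was above the 491 and 402 of the main fit. Counts of 0 for the transmitter peaks are near what the main shares give, and say less still where fewer peaks were called. Of 474 recomputed log2 fold changes of the 8 lead peaks, 466 kept their sign or moved by less than 1 standard error, and 8 uncalled ones did not. The lowest adjusted p of any member with a library left out was 0.216, at unc-47 peak 1 (log2 fold change 0.53) without RPOA-2 depleted replicate 1, and with a replicate block in place of the factors it was 0.184 at cat-1 peak 1 (-0.34). Pan-neuronal genes called by summed reads numbered 1 to 6 for RPOA-2 and 1 to 3 for GRWD-1 with a library left out, and 1 in each without factors. The log2 fold change of the called egl-3 peak upon RPOA-2 depletion, 0.36, turned to -0.037 with all peaks as controls, and the cause was not tested. The smallest peaks limit precision most: unc-47 peak 2 had 11 reads in its shallowest library and standard errors of 0.238 and 0.211.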

Other observations

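The strongest peak at a transmitter gene, cat-1 peak 2, contains a tRNA gene, and peaks over tRNA genes were looked at after that was seen. Of all peaks, 409 (1.4%) overlap an annotated tRNA gene. Their median level of 87.2 CPM per kb compares with 52.2 CPM per kb for the other 28722 peaks. Upon RPOA-2 depletion, 3 of them rose and 6 fell (2.2% called), beside 1.68% of the other peaks. Upon GRWD-1 depletion, 5 rose and 10 fell (3.67% called), beside 1.35% of the other peaks. The peak behind the pan-neuronal gene unc-104, which encodes a kinesin that carries synaptic vesicle precursors, also overlaps tRNA genes (chromosome II, 7002707 to 7003506). GRWD-1 larvae had 71.1 ± 15.9 CPM undepleted and 43.3 ± 5.29 CPM depleted (SD, n = 4 each), with no overlap, and the peak fell by 0.68 on the log2 scale (adjusted p = 3.1e-07, edgeR). Among fits that left out 1 library, that call was lost only without RPOA-2 depleted replicate 2. RPOA-2 larvae had 63.5 ± 8.90 CPM undepleted and 46.7 ± 8.12 CPM depleted (SD, n = 4 each), and the peak fell by 0.40 on the log2 scale (adjusted p = 0.0212, edgeR). That call held in 9 of 16 such fits and was lost without RPOA-2 undepleted replicate 1, 3 or 4, RPOA-2 depleted replicate 2, 3 or 4, or GRWD-1 depleted replicate 3. Whether the tRNA genes bear on these values was not tested.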
